A study of Mus musculus with 45 samples.

Results

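The transcripts described here encode 10 regulators of cell cycle entry and of mitotic gene expression: the E2F factors *E2f1*, *E2f2*, *E2f3*, *E2f7* and *E2f8*, the pocket proteins *Rb1*, *Rbl1* and *Rbl2*, and the factors *Foxm1* and *Mybl2*. They were picked by symbol as a named family, and all 10 were present in both count tables (55401 genes) and in the deposited TPM table of protein-coding genes of each sex (15991 genes in males, 15968 in females, 15828 in both). Translating ribosome affinity purification (TRAP) isolates ribosomes through an EGFP tag on their protein L10a, so the libraries sample mRNA held by ribosomes rather than total RNA. The study asked which mRNAs change in kidney tubule cells that have lost polycystin-1 (*Pkd1*), and which of these changes need the primary cilium, at a stage before cysts form.

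The 45 mice fell into 3 genotypes in each sex. Noncystic mice were Pkd1 fl/+ (8 males, 7 females), Pkd1KO mice were Pkd1 fl/fl (7 males, 8 females), and Pkd1KO+ciliaKO mice were Pkd1 fl/fl; Kif3a fl/fl (9 males, 6 females), *Kif3a* being a motor subunit without which cilia are lost. All 3 genotypes, the noncystic controls (wild type in the labels) included, also carried RosaEGFP-Rpl10a, Pax8rtTA and TetOCre, and all received doxycycline from postnatal day 28 to 42 and were taken at day 49 (7 weeks). The Pax8 promoter drives the reverse transactivator in nephron epithelium, so tagged ribosomes and gene deletion both depend on Cre activity in these cells, while a noncystic mouse still had 1 *Pkd1* allele deleted. Each library came from 1 mouse, and the fragments counted on genes ran from 80874556 to 132958186 per mouse. In such bulk material, fewer cells that express a gene and less mRNA per cell cannot be told apart.

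E2F proteins bind with a DP partner to promoters of genes for DNA replication. E2f1, E2f2 and E2f3 are activators, E2f7 and E2f8 are atypical members that bind without DP and repress, and the pocket proteins Rb1, Rbl1 (p107) and Rbl2 (p130) hold the classical E2Fs in check until cyclin-dependent kinases phosphorylate them. In resting cells Rbl2 or Rbl1 sits with E2F4 or E2F5 and the MuvB core in the DREAM repressor, and in cycling cells Mybl2 (B-Myb) and then Foxm1 join MuvB to switch on genes of G2 and mitosis. Several of these regulators are themselves E2F targets, and kidney tubule cells of an adult mouse are mostly quiescent.

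Gene by gene comparison is possible only per transcript length, in TPM. In noncystic males *Rbl2* was the most abundant of the 10 (60.5 ± 6.89 TPM, SD, n = 8), followed by *Rb1* (27.9 ± 5.05), *Rbl1* (7.83 ± 1.37), *E2f3* (7.01 ± 1.04), *E2f2* (4.05 ± 0.688), *E2f1* (3.54 ± 0.400), *Foxm1* (1.86 ± 0.525), *Mybl2* (0.351 ± 0.115), *E2f8* (0.267 ± 0.0963) and *E2f7* (0.215 ± 0.126). The ranges over mice overlapped between *Rbl1* and *E2f3*, between *E2f2* and *E2f1*, and among *Mybl2*, *E2f8* and *E2f7*, so the order within these sets is not beyond the spread. *Rbl2* and *Rb1* were thus the abundant members, and the atypical E2Fs and *Mybl2* sat below 1 TPM. Noncystic females, scaled in their own table, gave *Rbl2* 65.0 ± 4.49 TPM (n = 7), *Rb1* 41.8 ± 4.36, *Foxm1* 2.29 ± 0.392, *Mybl2* 1.55 ± 0.645 and *E2f7* 0.202 ± 0.0322. In raw counts the lowest library had 19 fragments for *E2f7*, 21 for *E2f8* and 35 for *Mybl2*, while *Rbl2* was never under 11659, so the scarce members carry the larger counting error.

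On GRCm38 the members with the called differences below lie on several chromosomes: *E2f1* at chr2:154559407-154569892, *Rbl1* at chr2:157145893-157204534, *Mybl2* at chr2:163054687-163084688, *Foxm1* at chr6:128362967-128376146, *E2f8* at chr7:48866429-48881596, *Rbl2* at chr8:91070057-91123844, *E2f3* at chr13:29906575-29986063, *Rb1* at chr14:73183673-73325822 and *E2f2* at chr4:136172394-136196057. Counts were given per gene, so isoforms cannot be told apart.

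RefSeq promoter windows of 300 bases on GRCm38.p6 (250 before to 50 after an annotated start) matched 8 of the 10 members in 10 windows, all but *Foxm1* and *Rb1*. E2F site words (TTTCCCGC, TTTCGCGC, TTTGCCGC, TTTGGCGC, either strand) stood in 4 of the 10 windows, those of *E2f2*, *E2f3*, *E2f7* and *Rbl1*, and in 2.26% of 32851 windows of the same length. CHR words (TTTGAA or TTCGAA, the element bound by MuvB) stood in 4 of 10 windows and in 19.2% of all windows, and CCAAT in 5 of 10 and in 37.4%. None of these matches overlapped another. The windows of *E2f8* (chr7:48881547-48881846, minus strand), *E2f7* (chr10:110745189-110745488, plus), *Rbl1* (chr2:157204485-157204784, minus) and *Mybl2* (chr2:163054385-163054684, plus) are printed because their transcripts rose with *Pkd1* loss or, for *E2f7*, lay next to the threshold. They read 5′ to 3′ on the strand of the gene, with the words in capitals.
E2f8: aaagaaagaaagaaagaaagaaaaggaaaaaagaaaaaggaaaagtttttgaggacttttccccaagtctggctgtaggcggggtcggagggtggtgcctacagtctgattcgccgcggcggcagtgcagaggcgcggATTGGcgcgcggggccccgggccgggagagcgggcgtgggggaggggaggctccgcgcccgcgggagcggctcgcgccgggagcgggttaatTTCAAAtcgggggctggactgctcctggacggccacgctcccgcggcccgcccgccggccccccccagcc
E2f7: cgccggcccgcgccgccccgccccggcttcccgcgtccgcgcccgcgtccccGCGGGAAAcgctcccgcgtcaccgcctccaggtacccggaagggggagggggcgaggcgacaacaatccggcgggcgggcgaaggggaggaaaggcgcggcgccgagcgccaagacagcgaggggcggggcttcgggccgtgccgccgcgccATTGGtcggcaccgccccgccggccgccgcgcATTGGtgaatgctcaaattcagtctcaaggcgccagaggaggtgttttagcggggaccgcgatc
Rbl1: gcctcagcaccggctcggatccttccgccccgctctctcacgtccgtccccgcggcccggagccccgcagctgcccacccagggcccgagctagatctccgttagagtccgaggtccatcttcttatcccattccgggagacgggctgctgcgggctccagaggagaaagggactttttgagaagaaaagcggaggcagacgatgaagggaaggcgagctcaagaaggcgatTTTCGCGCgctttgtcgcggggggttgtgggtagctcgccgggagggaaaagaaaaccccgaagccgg
Mybl2: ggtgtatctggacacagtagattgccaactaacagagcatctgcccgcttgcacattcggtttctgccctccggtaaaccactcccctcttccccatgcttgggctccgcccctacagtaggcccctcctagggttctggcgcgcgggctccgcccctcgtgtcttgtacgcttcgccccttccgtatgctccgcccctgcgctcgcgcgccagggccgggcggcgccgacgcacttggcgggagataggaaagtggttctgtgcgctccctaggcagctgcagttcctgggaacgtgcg
The *Rbl1* word TTTCGCGC spanned positions -18 to -11 counted from 0 at the start base. In *E2f8* a CHR word lay on the opposite strand at positions -20 to -15, with CCAAT, also reversed, at -112 to -108. *E2f7* held TTTCCCGC, reversed, at -198 to -191 and 2 reversed CCAAT words, and the *Mybl2* window held none of the listed words. The *E2f1* window (chr2:154569377-154569676, minus) lay inside the counted gene and held none either. A word is a description of these letters and not a bound site. Only exact matches to the listed words were searched, so a window without them may still hold a variant site.

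Some libraries needed separate handling. *Kif3a* lay at 4.90 to 7.45 CPM (counts scaled to library size by TMM) in the 9 Pkd1KO+ciliaKO males and at 13.8 to 25.5 in noncystic males, but in the library labelled noncystic female 5 it was 6.69 and in the library labelled Pkd1KO+ciliaKO female 6 it was 20.7, both against their labels, so female results are given with and without these 2 libraries. *Pkd1* reads over the whole gene (33.2 to 84.9 CPM over all mice) do not isolate the deleted exons and check nothing. Noncystic male 3, Pkd1KO male 4 and Pkd1KO+ciliaKO males 6 and 8 had scores of -30.2 to -1.13 on the first principal component, where the 20 other males ran from 14.4 to 40.3 and the 21 females from -38.4 to -12.9, and male results are given with and without these 4. In a comparison of 2 groups, only those of these female or male libraries that belong to the 2 groups were left out. Summed proximal tubule markers lay between 4634 CPM, in Pkd1KO male 4, and 11190 over all mice, with medians of 10140 in noncystic, 7838 in Pkd1KO and 7103 in Pkd1KO+ciliaKO males, and thick ascending limb markers had medians of 2806, 1790 and 2993 in these groups. The part of these shifts in the male results was not tested. Summed podocyte markers lay between 25.3 and 100.3. Summed macrophage markers (5 genes) were 92.5 to 244 CPM in Pkd1KO males, 67.2 to 94.4 in noncystic males and 47.5 to 93.2 in Pkd1KO+ciliaKO males, and the highest values of the macrophage, T cell (8.35), endothelial (316) and fibroblast (571) sums among Pkd1KO males were those of Pkd1KO male 4.

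In males, loss of *Pkd1* alone went with more *Foxm1*, *E2f8*, *E2f1*, *Mybl2* and *Rbl1* mRNA on ribosomes. These 5 of the 10 members rose against noncystic males at an adjusted p of at most 0.05 (edgeR) and none fell, where 6.3% of the 15991 genes tested passed in either direction and 4.05% passed as higher. The median log2 difference of the 10 members was 0.82, against -0.01 over all genes tested. *Rb1*, *Rbl2* and *E2f3* had log2 differences of -0.09, 0.10 and 0.11, none past the threshold.

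*E2f1*, an activator, ranged from 3.22 to 4.35 CPM in noncystic males (median 3.71), from 5.45 to 17.0 in Pkd1KO males (median 8.17) and from 3.54 to 6.88 in Pkd1KO+ciliaKO males (median 5.81). Every Pkd1KO male lay above every noncystic male, whereas 7 of 9 Pkd1KO+ciliaKO males did so. The change in Pkd1KO was 2.38-fold (log2 1.25 ± 0.19 SE, adjusted p = 0.00103), and that in Pkd1KO+ciliaKO 1.49-fold (log2 0.57 ± 0.13, adjusted p = 0.0111). The other activators had smaller differences. *E2f2* had medians of 6.43, 8.74 and 7.30 CPM in noncystic, Pkd1KO and Pkd1KO+ciliaKO males and missed the threshold in Pkd1KO (log2 0.39 ± 0.12, adjusted p = 0.0543), passing it when Pkd1KO male 2 or 7 or noncystic male 4 or 5 was left out (0.0310 to 0.0492). Leaving out Pkd1KO male 4 gave 0.36 (adjusted p = 0.114). *E2f3* had medians of 12.5, 14.3 and 15.1 CPM with overlapping ranges and log2 differences from noncystic males of 0.11 ± 0.11 and 0.24 ± 0.10, neither past the threshold.

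*E2f8*, an atypical E2F that represses E2F targets late in S phase, showed the largest fold of the 10 members in Pkd1KO males. It ran from 0.252 to 0.650 CPM in noncystic males (median 0.527), 1.13 to 4.15 in Pkd1KO males (median 1.54) and 0.634 to 1.59 in Pkd1KO+ciliaKO males (median 0.968). No Pkd1KO value overlapped the noncystic range, and 8 of 9 Pkd1KO+ciliaKO values lay above it. The rise was 3.80-fold in Pkd1KO (log2 1.93 ± 0.29, adjusted p = 0.00103) and 2.14-fold in Pkd1KO+ciliaKO (log2 1.10 ± 0.21, adjusted p = 0.00321). *E2f7* gave medians of 0.645, 1.17 and 0.867 CPM in the same order. Its log2 difference of 1.34 ± 0.39 in Pkd1KO had an adjusted p of 0.0505, and noncystic male 3, at 1.26 CPM, lay within the Pkd1KO range. The *E2f7* difference passed when noncystic male 3 (adjusted p = 0.0228) or Pkd1KO male 1, 2, 5 or 6 (0.0387 to 0.0498) was left out. Leaving out Pkd1KO male 4 lowered it to 0.95 (adjusted p = 0.124). Of the *E2f8* exon bases 11.2% are shared with the antisense gene Gm2788, whose mean level was 0.0553 CPM in Pkd1KO males and 0.0448 in noncystic males.

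Among the pocket proteins edgeR called only *Rbl1* higher in Pkd1KO males. *Rbl1* went from a median of 15.7 CPM in noncystic males (12.3 to 18.1) to 19.7 in Pkd1KO (16.4 to 24.8) and 18.2 in Pkd1KO+ciliaKO males (17.4 to 21.6). The ranges overlapped, with log2 differences of 0.34 ± 0.09 (adjusted p = 0.0383) and 0.28 ± 0.07 (adjusted p = 0.0188). The first of these calls held in 4 of 15 fits that left out a mouse (adjusted p from 0.0209 to 0.0732): it was lost without Pkd1KO male 2, 3, 4, 6 or 7 or noncystic male 1, 2, 5, 6, 7 or 8. The second was lost without noncystic male 2 (0.0521). *Rb1*, the retinoblastoma protein itself, had medians of 55.2, 52.4 and 60.8 CPM, and *Rbl2* medians of 152.8, 170.9 and 156.3 CPM. With edgeR, neither passed in any comparison of male genotypes. Voom with sample quality weights called *Rbl2* in Pkd1KO against noncystic males (log2 0.18, adjusted p = 0.0438). *Rb1* shares 14.9% of its exon bases with Rcbtb2 and Lpar6, and *Rbl2* 21.0% with Aktip and Gm45464, so these levels are uncertain by the reads that fall there.

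*Foxm1*, which drives mitotic genes, was the 1 member with both knockout groups wholly above the noncystic range in males. The share of all genes separated in this way is not given here, so it does not set *Foxm1* apart from other genes. Noncystic males lay between 2.28 and 4.37 CPM (median 3.75), Pkd1KO+ciliaKO males between 4.60 and 10.7 (median 6.66) and Pkd1KO males between 5.84 and 23.1 (median 9.93). The knockout groups overlapped each other. *Foxm1* was 3.25-fold higher in Pkd1KO (log2 1.70 ± 0.26, adjusted p = 0.00102) and 2.00-fold higher in Pkd1KO+ciliaKO (log2 1.00 ± 0.18, adjusted p = 0.00232). *Mybl2*, its predecessor on MuvB, went from a median of 0.509 CPM (0.377 to 0.783) to 1.13 in Pkd1KO males (0.740 to 3.22) and 0.788 in Pkd1KO+ciliaKO males (0.553 to 1.32). Its difference passed in Pkd1KO (2.54-fold, log2 1.35 ± 0.29, adjusted p = 0.0107) and not in Pkd1KO+ciliaKO (log2 0.59 ± 0.19, adjusted p = 0.0552), where leaving out Pkd1KO+ciliaKO male 2 or 3 or noncystic male 3 brought the adjusted p to 0.0476, 0.0425 and 0.0207.

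Pkd1KO male 4 held the highest value of its group for *E2f1*, *E2f2*, *E2f7*, *E2f8*, *Foxm1*, *Mybl2*, *Rbl1* and *E2f3* and the lowest for *Rbl2*. Without this mouse the log2 differences from noncystic males were 1.01 for *E2f1*, 1.58 for *E2f8*, 1.44 for *Foxm1* and 0.97 for *Mybl2*, each still past the threshold, while *Rbl1* fell short (0.28, adjusted p = 0.0637). So did *E2f7* (0.95, adjusted p = 0.124) and *E2f2* (0.36, adjusted p = 0.114). Without the males that stand apart the values were 0.99 for *E2f1*, 1.65 for *E2f8*, 1.48 for *Foxm1*, 1.07 for *Mybl2*, 0.31 for *Rbl1* and 1.17 for *E2f7* (adjusted p = 0.0346), so that 6 members were called. The share of all genes called in that fit is not given here. In the full comparison 1 of 5 macrophage markers (median log2 1.63) and 0 of 4 T cell markers (median 1.90) rose, and the median of the summed macrophage markers was 107.8 CPM in Pkd1KO and 86.3 in noncystic males. The part of other cell types in the size of the differences was not tested.

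**Figure D1:**
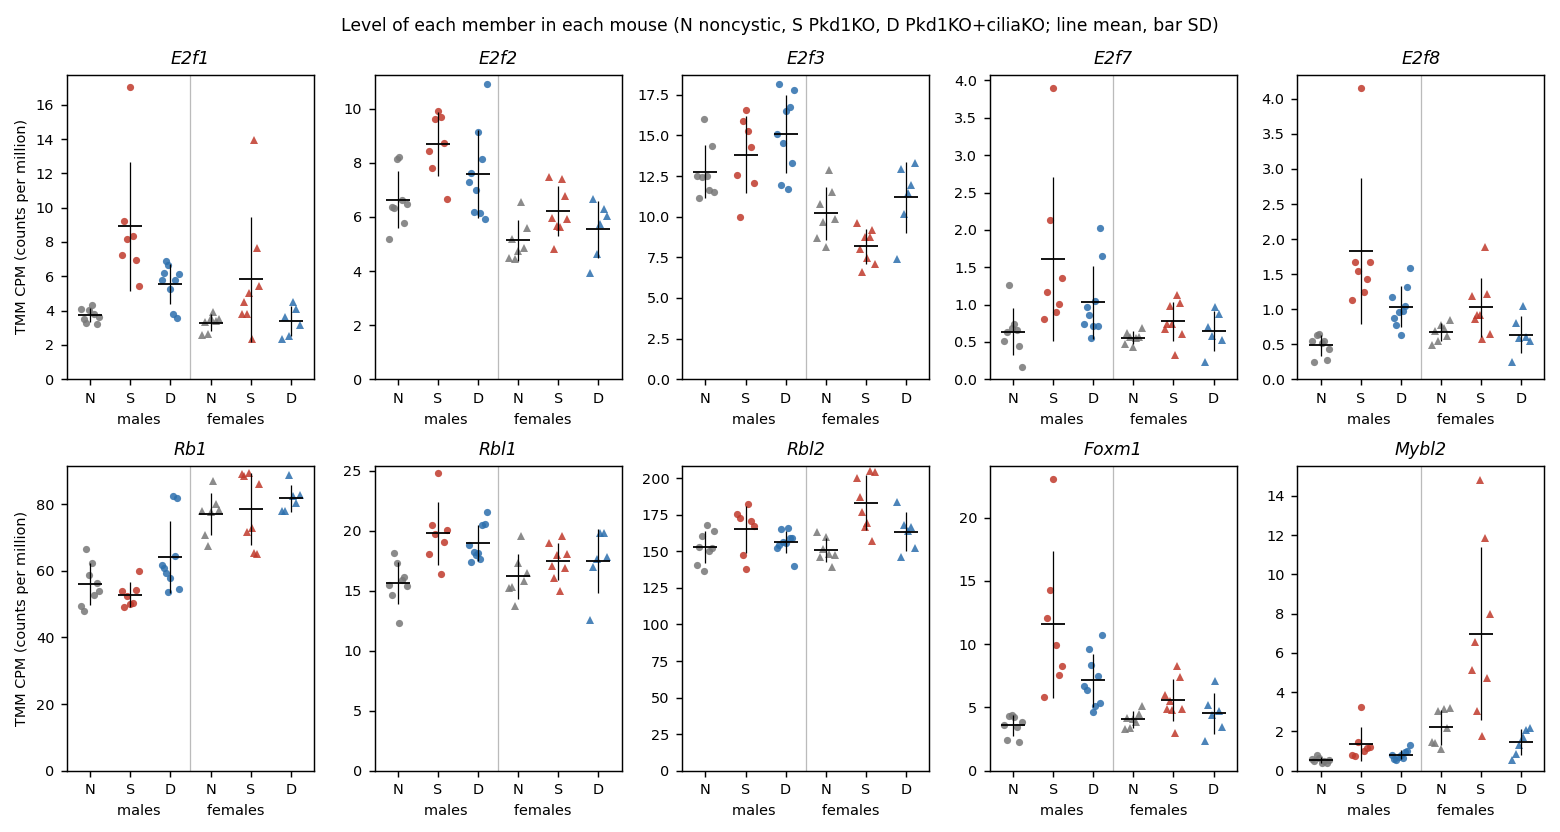
Level of each of the 10 transcripts in each mouse, in CPM on linear axes from 0, for noncystic (N), Pkd1KO (S) and Pkd1KO+ciliaKO (D) males (circles) and females (triangles), with the group mean as a line and the SD as a bar. Pkd1KO males lie wholly above noncystic males for *E2f1*, *E2f8* and *Foxm1*, and *Mybl2* is highest in Pkd1KO females (1.78 to 14.8 CPM). The share of all genes with groups apart in this way is not given here.

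The direct comparison of Pkd1KO with Pkd1KO+ciliaKO males, which asks what the cilium adds once *Pkd1* is gone, called none of the 10 members (edgeR, smallest adjusted p 0.0702), where 3.77% of 15991 genes passed in either direction and 1.99% as higher in Pkd1KO. At an unadjusted p under 0.05 there were 5 members beside 19.7% of all genes, and DESeq2 called 2, *E2f1* and *E2f8*, beside 7.72%. The log2 differences were 0.69 ± 0.20 for *E2f1*, 0.83 ± 0.26 for *E2f8*, 0.70 ± 0.25 for *Foxm1*, 0.76 ± 0.28 for *Mybl2* and -0.28 ± 0.09 for *Rb1*. *E2f1* was the member with the least overlap, with 6 of 7 Pkd1KO males above all 9 Pkd1KO+ciliaKO males. *E2f1* passed without Pkd1KO male 7 (adjusted p = 0.0461), the 1 call in 16 fits that left out a mouse. Without Pkd1KO male 4 its difference was 0.45 (adjusted p = 0.119). Without the males that stand apart the differences were smaller, 0.30 for *E2f1* (adjusted p = 0.165), 0.52 for *E2f8*, 0.37 for *Mybl2* and 0.32 for *Foxm1* (adjusted p = 0.482). That of *Rb1* was then -0.15 (adjusted p = 0.213). Against noncystic males, Pkd1KO+ciliaKO males had 4 members called higher (*E2f1*, *E2f8*, *Foxm1* and *Rbl1*) beside 8.89% of all genes in either direction and 5.63% as higher, with a median of 0.42 over the 10 members, and without the males that stand apart *Mybl2* joined them (0.69, adjusted p = 0.0316). Mast cell markers, summed, lay at 0.132 to 0.326 CPM in noncystic, 0.506 to 1.52 in Pkd1KO+ciliaKO and 0.901 to 3.56 in Pkd1KO males, and their part in these differences was not tested. Both knockouts were compared with the same noncystic mice, so the 2 sets of differences are not independent.

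In females the members called in Pkd1KO mice were *Mybl2* and *Rbl2*. Against noncystic females, Pkd1KO females had 2 of 10 members higher and none lower at the threshold, *Mybl2* and *Rbl2*, where 3.34% of 15968 genes passed in either direction and 2.02% as higher. *Mybl2* lay between 1.10 and 3.17 CPM in noncystic females (median 2.16), between 1.78 and 14.8 in Pkd1KO females (median 5.84) and between 0.541 and 2.18 in Pkd1KO+ciliaKO females (median 1.50). Of the 8 Pkd1KO females, 6 lay above all noncystic females and 7 above all Pkd1KO+ciliaKO females. The rise was 3.17-fold against noncystic females (log2 1.67 ± 0.39, adjusted p = 0.0227) and 4.85-fold against Pkd1KO+ciliaKO females (log2 2.28 ± 0.45, adjusted p = 0.00499). Without the 2 libraries that go against their labels these became 1.77 (adjusted p = 0.0248) and 2.43 (adjusted p = 0.00649). The first call was lost without noncystic female 2 or without noncystic female 6, where the adjusted p was 0.0548 and 0.0520, and the second held in 14 of 14 fits that left out a mouse. Summed macrophage markers lay at 54.7 to 80.4 CPM in noncystic, 58.7 to 113 in Pkd1KO and 35.8 to 66.7 in Pkd1KO+ciliaKO females. Summed mast cell markers lay at 0.523 to 2.98 CPM in noncystic (median 0.722), 1.71 to 7.33 in Pkd1KO (median 4.11) and 1.02 to 2.13 in Pkd1KO+ciliaKO females (median 1.49), and 1 of the 3 tested was higher in Pkd1KO in both comparisons. They were thus highest in the group where *Mybl2* was highest. The part of these cells in the female differences was not tested.

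*Rbl2*, which represses cell cycle genes in resting cells, went from a median of 148.5 CPM in noncystic females (139.1 to 163.1) to 181.9 in Pkd1KO females (157.4 to 205.2) and 165.2 in Pkd1KO+ciliaKO females (146.4 to 184.1). Of the 8 Pkd1KO females, 7 lay above all noncystic females, at 1.22-fold (log2 0.28 ± 0.06, adjusted p = 0.0184), and the value was 0.28 (adjusted p = 0.0315) without the 2 libraries. Aktip, which shares exon bases with *Rbl2* on the other strand, had a log2 difference of -0.06 ± 0.05 in the same comparison (adjusted p = 0.658). *E2f3* had a median of 8.35 CPM in Pkd1KO females (6.62 to 9.63), 9.88 in noncystic females (8.16 to 12.9) and 11.7 in Pkd1KO+ciliaKO females (7.38 to 13.3). It was lower in Pkd1KO than in Pkd1KO+ciliaKO females (log2 -0.46 ± 0.13, adjusted p = 0.0284). This call was lost without the library labelled Pkd1KO+ciliaKO female 6, the 1 of the 2 libraries in these groups (-0.40, adjusted p = 0.0638). It was also lost without Pkd1KO female 8 or Pkd1KO+ciliaKO female 2, 4 or 5 (adjusted p from 0.0525 to 0.0674). In this comparison 11.7% of 15968 genes passed in either direction and 7.05% as higher in Pkd1KO, beside *Mybl2* higher and *E2f3* lower among the 10.

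With edgeR, *Foxm1*, *E2f8* and *E2f1* did not pass in any comparison of female genotypes, whereas DESeq2 called *E2f1* in Pkd1KO against noncystic females (log2 0.83, adjusted p = 0.0396), where it called 6.02% of all genes. *Foxm1* lay between 3.31 and 5.14 CPM in noncystic females (median 4.09), 3.01 and 8.26 in Pkd1KO females (median 5.20) and 2.37 and 7.10 in Pkd1KO+ciliaKO females (median 4.54), with overlapping ranges throughout. Its log2 difference in Pkd1KO was 0.47 ± 0.17 (adjusted p = 0.160). *E2f8* gave medians of 0.685, 0.912 and 0.593 CPM and a difference of 0.62 ± 0.23 (adjusted p = 0.165). *E2f1* gave medians of 3.38, 4.77 and 3.40 CPM and a difference of 0.83 ± 0.28 (adjusted p = 0.128), with Pkd1KO female 6 at 13.9 CPM. Without Pkd1KO female 5, the lowest of its group for both, *Foxm1* (adjusted p = 0.0350) and *E2f1* (adjusted p = 0.0457) passed. For each gene this was the 1 call in 15 fits that left out a mouse. Over these fits the adjusted p reached 0.283 for *Foxm1* and 0.217 for *E2f1*. At an unadjusted p under 0.05, 8 of the 10 members passed in Pkd1KO against noncystic females (edgeR), beside 16.4% of all genes. Pkd1KO+ciliaKO females had no member called against noncystic females (edgeR), where 2.54% of all genes passed in either direction and 0.67% as higher. At an unadjusted p under 0.05 there were 0 members beside 21.4% of all genes, and DESeq2 called none beside 8.02%. Limma on TPM called 1, *Rbl2*, and its share of all genes is not given here.

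**Figure D2:**
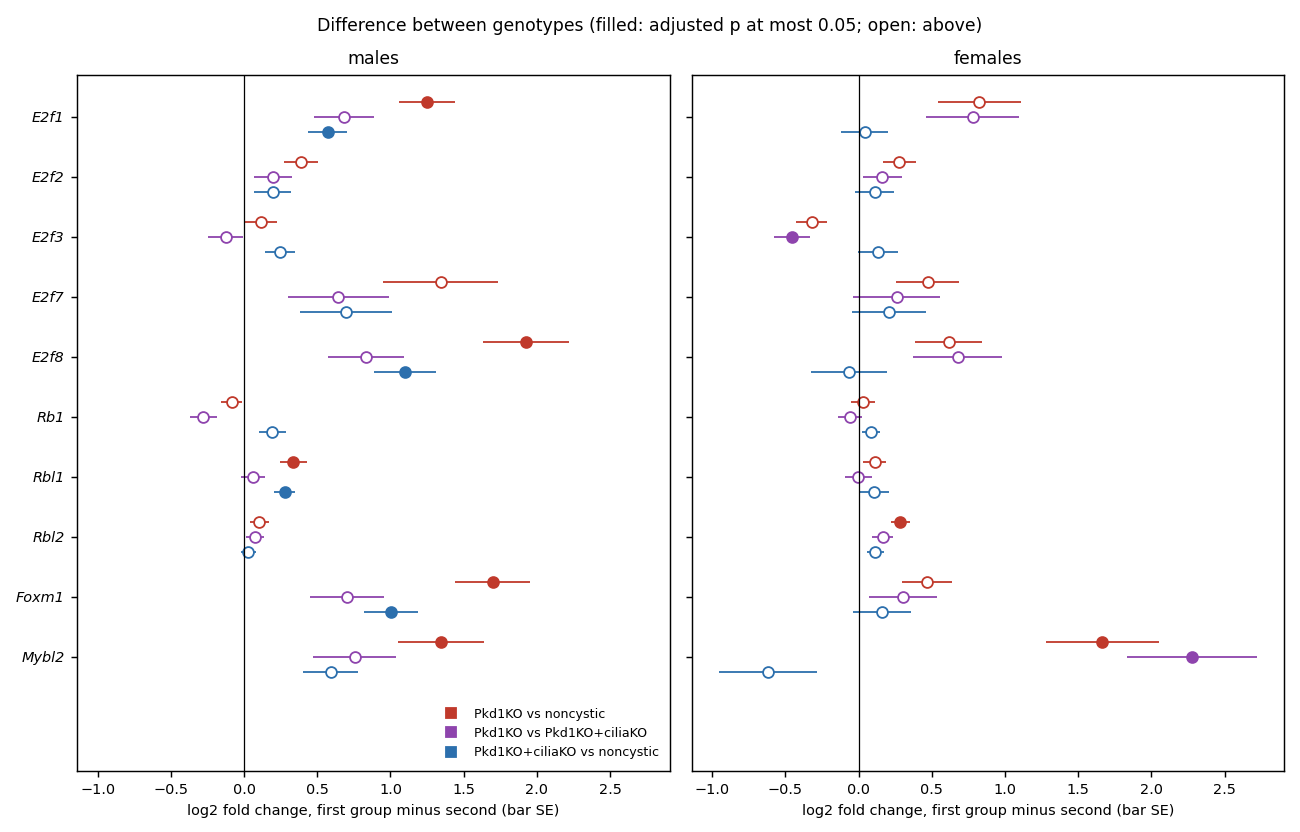
Log2 fold change of each member in the 3 comparisons of genotypes in males (left) and females (right), with the SE as a bar and filled points where the adjusted p was at most 0.05. Filled points gather at *E2f1*, *E2f8*, *Foxm1*, *Mybl2* and *Rbl1* in males and at *Mybl2*, *Rbl2* and *E2f3* in females.

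Whether the sexes differed in these responses was tested directly. The male minus female difference in the Pkd1KO response was 1.23 ± 0.32 for *Foxm1* (edgeR adjusted p = 0.156 over 15828 genes) and 1.31 ± 0.37 for *E2f8* (edgeR adjusted p = 0.218), and no member passed. After adjustment 0.0126% of genes passed, and at an unadjusted p under 0.05 there were 4 of 10 members beside 8.08% of genes. In Pkd1KO against Pkd1KO+ciliaKO the largest difference was that of *Mybl2* (-1.53 ± 0.48, adjusted p = 0.267), and no member passed beside 0.221% of genes. At an unadjusted p under 0.05 there was 1 of 10 members beside 7.94% of genes. In Pkd1KO+ciliaKO against noncystic 3 members had an unadjusted p under 0.05, *E2f8* (1.16 ± 0.38), *Mybl2* (1.21 ± 0.49) and *Foxm1* (0.84 ± 0.33), beside 5.49% of genes, while after adjustment no member and 0.0316% of genes passed. DESeq2 called no member in any of the 3.

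Noncystic males and females were also compared. Of the 10 members 4 were called, 2 higher and 2 lower, beside 27.5% of 15828 genes, so the members' count is not far from that of all genes. *Mybl2* was lower in males, at 0.377 to 0.783 CPM against 1.10 to 3.17 in females, without overlap (log2 -2.02 ± 0.24, adjusted p = 1.05e-05). *Rb1* was lower too, at 47.8 to 66.5 CPM against 67.4 to 87.1, again without overlap (log2 -0.44 ± 0.07, adjusted p = 0.000221). *E2f2* (log2 0.39 ± 0.11, adjusted p = 0.0174) and *E2f3* (log2 0.34 ± 0.10, adjusted p = 0.0213) were higher in males, with overlapping ranges. Without noncystic male 3 and the library labelled noncystic female 5 the differences were -2.02 for *Mybl2*, -0.46 for *Rb1*, 0.46 for *E2f2* and 0.40 for *E2f3*, all past the threshold, and without noncystic male 7 *E2f3* missed it (adjusted p = 0.0521).

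The partners of these regulators changed little. Of 13 genes for the DP subunits, *E2f4*, *E2f5*, *E2f6*, *Myb*, *Mybl1* and the MuvB core with its histone-binding subunits, 1 rose in Pkd1KO males, the DP subunit *Tfdp1* (log2 0.33 ± 0.09, adjusted p = 0.0386), and 0 rose without the males that stand apart. In Pkd1KO+ciliaKO males the 1 that rose was *Mybl1*, the A-Myb factor (log2 0.69 ± 0.12, adjusted p = 0.00150). In females *Tfdp1* was higher (log2 0.38 ± 0.08, adjusted p = 0.00806) and *Tfdp2* lower (-0.33 ± 0.08, adjusted p = 0.0125) in Pkd1KO than in Pkd1KO+ciliaKO. Of all genes, 6.3% passed in either direction in Pkd1KO and 8.89% in Pkd1KO+ciliaKO against noncystic males, and 11.7% in this comparison of females. With 13 genes listed, these calls are not far from those shares. The list's median log2 difference lay between -0.03 and 0.06 in the 6 comparisons.

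Of 15 genes for cyclins, kinases and inhibitors of G1, 14 were tested (*Cdkn2a* was not) and 4 rose in Pkd1KO males, among them cyclin E1 *Ccne1* (log2 1.24 ± 0.23, adjusted p = 0.00328), cyclin D1 *Ccnd1* (0.66 ± 0.11, adjusted p = 0.00151) and the inhibitor *Cdkn2c* (0.54 ± 0.12, adjusted p = 0.00935). DESeq2 called 7, and its share of all genes there is not given here. In Pkd1KO+ciliaKO males 5 rose, including *Ccnd1* (0.57 ± 0.09, adjusted p = 0.00113) and the inhibitor *Cdkn1a*, p21 (1.05 ± 0.20, adjusted p = 0.00237). Without the males that stand apart the counts were 4 and 6. In the full comparisons 4.05% and 5.63% of all genes were called higher (edgeR). None of the 14 was called between Pkd1KO and Pkd1KO+ciliaKO males or in any comparison of females (edgeR), and DESeq2 called 1 in the former and at most 1 in the latter. In Pkd1KO females *Cdkn1a* had a difference of 0.47 ± 0.15 (adjusted p = 0.0960) and *Ccnd1* of 0.43 ± 0.16 (adjusted p = 0.153).

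Targets of the E2Fs and of Foxm1 rose with them in males. Of 30 genes of G1/S and replication, 22 rose in Pkd1KO males and none fell, with a median log2 difference of 0.74, led by the ribonucleotide reductase subunit *Rrm2* (1.49 ± 0.21, adjusted p = 0.000783), the helicase subunit *Mcm6* (0.61 ± 0.10) and *Dtl* (1.63 ± 0.26). In Pkd1KO+ciliaKO males 6 rose (median 0.31), and 5 were higher in Pkd1KO than in Pkd1KO+ciliaKO males, led by the licensing factor *Cdt1* (0.53 ± 0.11, adjusted p = 0.0108). DESeq2 called more of these 30 genes, 24, 13 and 14 in the 3 comparisons. Of all genes, edgeR called 4.05%, 5.63% and 1.99% higher in the same comparisons, with medians of -0.01, 0.01 and 0.01. DESeq2 called 7.72% in either direction in the third, and its shares in the other comparisons are not given here. The lists of targets were chosen with earlier results of these data known. Of 30 genes of G2 and mitosis, 30 rose in Pkd1KO males (median 1.75) and 28 in Pkd1KO+ciliaKO males (median 1.03), such as *Cdk1* (1.93 ± 0.28 in Pkd1KO), *Ube2c* (2.06 ± 0.30 in Pkd1KO) and *Nusap1* (1.17 ± 0.16 in Pkd1KO+ciliaKO). None of the mitotic genes passed between the knockouts in males (median 0.73; DESeq2 called 10). Without the males that stand apart, 22 of the G1/S and 29 of the mitotic genes rose in Pkd1KO males.

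In females 4 of the 30 G1/S genes rose in Pkd1KO (median 0.43), led by *Rrm1* (0.59 ± 0.08, adjusted p = 0.000705) and *Mcm6* (0.54 ± 0.09, adjusted p = 0.00309), and 6 were higher than in Pkd1KO+ciliaKO females, led by *Mcm6* (0.84 ± 0.12, adjusted p = 0.000905). DESeq2 called 12 and 11. Both edgeR counts fell to 2 without the 2 libraries that go against their labels. Of all genes, edgeR called 2.02% and 7.05% higher in these 2 comparisons with all libraries, and DESeq2 called 6.02% in either direction in the first. The DESeq2 share in the second is not given here. Of the mitotic genes 4 rose in Pkd1KO females (median 0.60), *Prc1* (0.77 ± 0.17, adjusted p = 0.0151) and *Kif11* (0.72 ± 0.16, adjusted p = 0.0157) among them, and DESeq2 called 18. *Ube2c* was the 1 mitotic gene higher in Pkd1KO than in Pkd1KO+ciliaKO females (1.16 ± 0.21, adjusted p = 0.00282), where DESeq2 called 3. Neither list had a gene called in Pkd1KO+ciliaKO against noncystic females (edgeR), where 0.67% of all genes were called higher. There DESeq2 called 1 mitotic gene, beside 8.02% of all genes in either direction.

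**Figure D3:**
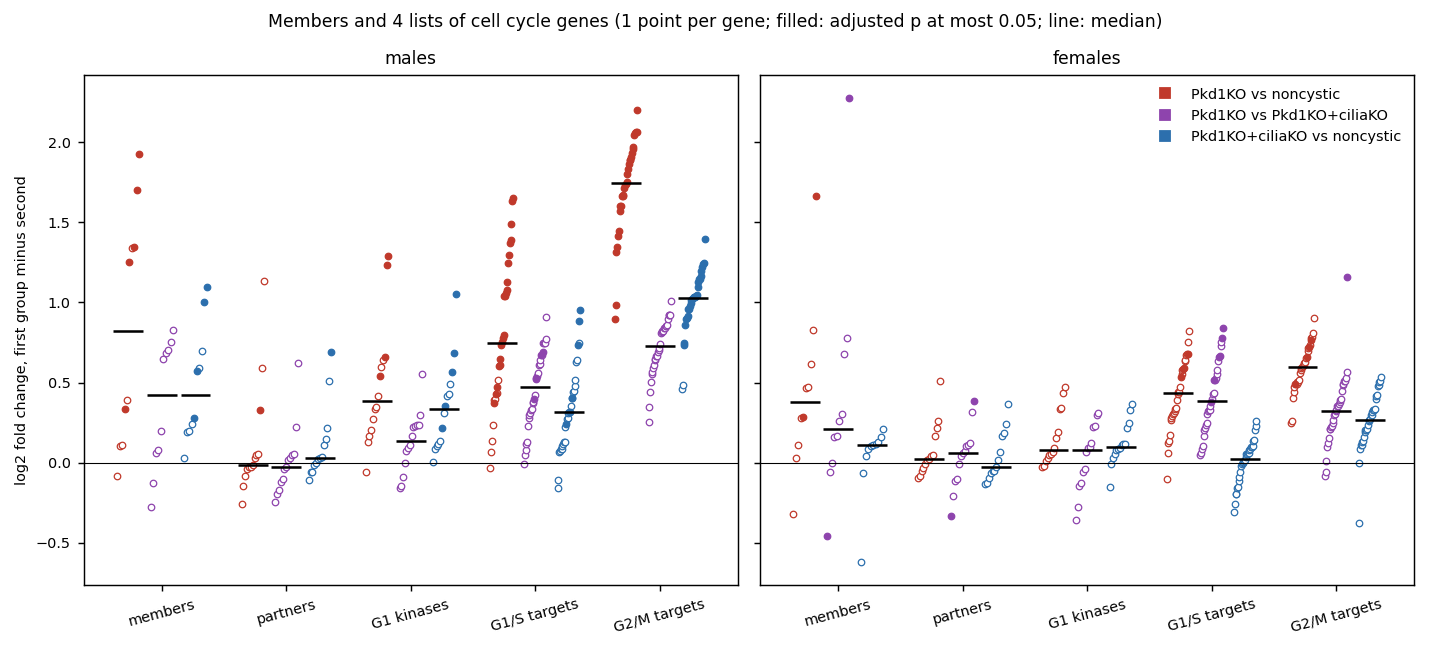
Log2 fold change of each gene in the 10 members and in the lists of partners, G1 kinases, G1/S targets and G2/M targets, in 3 comparisons for males and females, with filled points where the adjusted p was at most 0.05 and the median as a line. In males the mitotic list stands highest in Pkd1KO against noncystic (median 1.75), and the partners lie around 0.

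Many pairs of members co-varied from mouse to mouse within a group. Over deviations of log2(CPM + 0.1) from the group mean in 45 mice, 29 of the 45 pairs had an adjusted p of at most 0.05 (permutation within groups, two-sided, 100000 resamples), 26 with a positive and 3 with a negative r. These counts are for Pearson's r. By Spearman's rho some of these pairs missed the threshold in the same test, such as *E2f1* with *Mybl2* (adjusted p = 0.151) and *Foxm1* with *Mybl2* (adjusted p = 0.107). Pairs of other genes were not tested, so this count does not set the members apart from other genes. It was not repeated without the males that stand apart or the 2 libraries that go against their labels. The part of cell composition was not tested. *Foxm1* and *E2f8* were the closest pair (Pearson's r = 0.81, permutation p = 1e-05, the smallest these resamples can give, adjusted p = 9e-05; Spearman's rho = 0.71, permutation p = 1e-05), positive in 6 of 6 groups with r from 0.37 to 0.97, and r was 0.74 without the 2 mice farthest from the median of *E2f8*. *E2f2* and *E2f3* gave r = 0.75 (rho = 0.74, permutation p = 1e-05 for both) and 0.72 without 2 mice. *E2f1* and *Foxm1* gave r = 0.73 (rho = 0.72, permutation p = 1e-05 for both) and 0.71 without 2 mice.

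The abundant pocket proteins, *Rb1* and *Rbl2*, were in none of the positive pairs past the threshold. *Rbl2* varied against *E2f3* (r = -0.53, permutation p = 0.00031, adjusted p = 0.00139; rho = -0.53, permutation p = 0.00038; r = -0.48 without 2 mice), with a negative r in all 6 groups. It also varied against *E2f7* (r = -0.40, permutation p = 0.0163, adjusted p = 0.0262; rho = -0.38, permutation p = 0.0157), where r was -0.26 without the 2 mice farthest from the median. *Rb1* varied against *E2f1* (r = -0.42, permutation p = 0.00855, adjusted p = 0.0183; rho = -0.37, permutation p = 0.0216; r = -0.45 without 2 mice). By group this r ran from -0.92 to 0.61 and was positive in 1 of 6 groups. Pkd1KO+ciliaKO males 6 and 8, which stand apart, held the highest *Rb1* (82.5 and 82.0 CPM) and lowest *E2f1* (3.78 and 3.54 CPM) of their group. *Mybl2* was closest to *Rbl1* (r = 0.64, permutation p = 1e-05; rho = 0.64, permutation p = 2e-05; r = 0.54 without 2 mice).

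**Figure D4:**
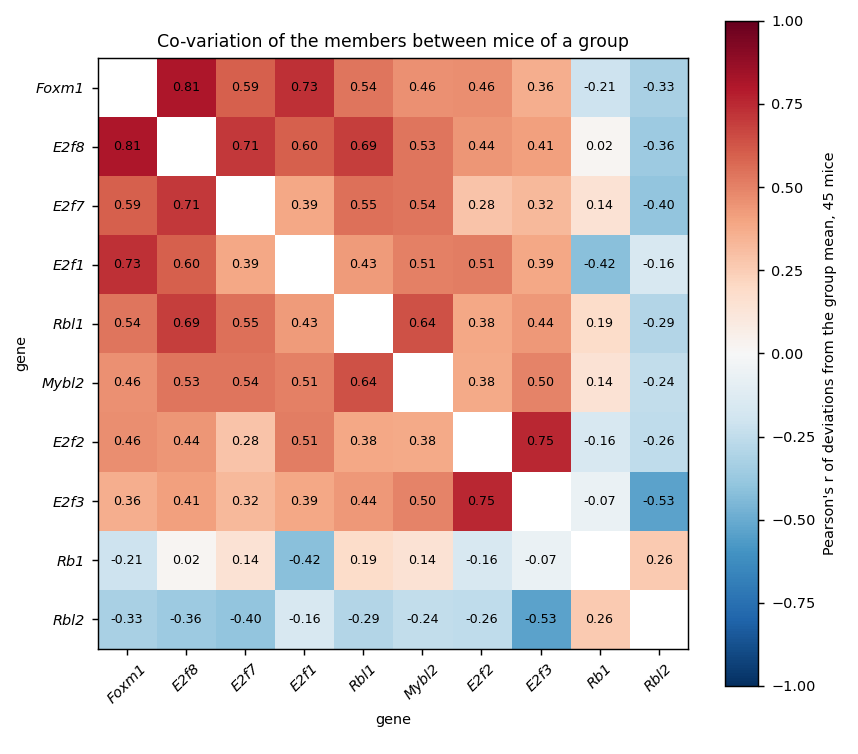
Pearson's r between deviations of each pair of members from the group mean over 45 mice, on a colour scale from -1 to 1. *Foxm1*, *E2f8*, *E2f7*, *E2f1*, *Rbl1* and *Mybl2* form a block of positive values up to 0.81, and *Rbl2* has negative values down to -0.53 except with *Rb1* (0.26).

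The genes whose levels were most like each member over all 45 mice, group differences included, are given as a description. For *Foxm1* they were the mitotic kinases *Aurkb* and *Cdk1* and the cyclin *Ccna2* (r = 0.96 for each). For *E2f8* they were the nuclease *Exo1* (r = 0.94), *Rrm2* (0.94) and *Pclaf* (0.92). *E2f1* was nearest to the centromere protein *Cenpm* (0.91), thymidine kinase *Tk1* (0.89) and *Dbf4* (0.88), *E2f7* to *Kntc1* (0.87), *Brca1* (0.86) and *Top2a* (0.86), and *E2f2* to *Exo5* (0.87), *Dbf4* (0.84) and 3300002I08Rik (0.84). *Rbl1* was nearest to *Ccdc18* (0.81), *Shcbp1* (0.81) and *Dnah8* (0.81). For the others the neighbours were *Mgll* (0.89), *Slc24a3* (0.88) and *Acot7* (0.87) for *Mybl2*, *Etnk1* (0.95), *Elovl6* (0.90) and *Slc22a29* (0.90) for *Rb1*, *Smad4* (0.77), *Pard6b* (0.76) and *Ptpdc1* (0.75) for *Rbl2*, and *Ralgps1* (0.86), *Gdf11* (0.83) and *Plod2* (0.81) for *E2f3*. Sex, genotype and depth are shared by these values, and no p is attached to them.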

How the data were processed

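For the deposited files the authors ran fastp 0.20.0, STAR 2.7.9 against GRCm38.p6 with GENCODE annotation, and featureCounts 2.0.0. Strand and multimapping options are not given in the sources used here. The authors deposited raw counts per gene and mouse and, by sex, TPM for protein-coding genes that reached 6 counts in 20% of that sex's mice. These genes were tested on the counts with edgeR 4.0.16 (TMM, quasi-likelihood, R 4.3.3), each pair of genotypes alone within a sex and the sex differences in 1 fit of 45 mice, adjusting by Benjamini-Hochberg over all genes tested (threshold 0.05). Levels are TMM CPM. Alternatives were DESeq2 1.42.0, its size factors, no filter, 3 genotypes in 1 fit, a replicate block, voom and, with limma 3.58.1, log2(TPM + 0.1) or log2(TPM + 1), and leaving out libraries. Symbols were matched for 55141 of 55401 IDs. Members, lists and alternatives were chosen with earlier results of these data known. Genes named beside the members are *Pkd1* and *Kif3a*, up to 3 of each list with the smallest p in a comparison, the 3 nearest neighbours of each member and genes that share its exon bases. Mice were separate animals. Per a figure legend of the study, the frozen material went through RNA sequencing in 1 batch, which does not speak of harvest or pulldown. Fragments carry no molecular identifiers, so depth speaks for counting error only.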

Additional observations from a re-analysis of the deposited data

Results flagged for a closer look

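In 60 groups of a member's CPM values by genotype and sex, 5 single mice lay far from the rest of their group by Dixon's ratio, a rule that chance meets in about 1 group in 20. In Pkd1KO males, mouse 4 stood apart for *E2f1* at 17.02 CPM, *E2f7* at 3.893 CPM, *E2f8* at 4.152 CPM and *Mybl2* at 3.222 CPM. The 4 values come from 1 library. In Pkd1KO females, mouse 6 stood apart for *E2f1* at 13.93 CPM, where the other 7 mice lay between 2.34 and 7.67 CPM.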

How the results depend on the processing

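Numbers of members called moved by setting as follows. In Pkd1KO against noncystic males the main count of 5 became 8 with voom weights and 3 with limma on either TPM scale, and 4 to 6 without single mice. In Pkd1KO against Pkd1KO+ciliaKO males 0 became 2 with DESeq2, 2 with 3 genotypes in one fit and 1 with voom, and 0 to 1 without single mice. Under the replicate block, the count fell from 4 to 2 in Pkd1KO+ciliaKO against noncystic males, from 2 to 0 in Pkd1KO against noncystic females and from 2 to 1 in Pkd1KO against Pkd1KO+ciliaKO females, and was 6, 0, 0 and 3 elsewhere. Same-numbered mice correlated above 0.1 in 0 to 3 pairs of a comparison, so the numbers do not pair the mice. Without single mice the counts ran from 3 to 5, 1 to 4 and 1 to 2 in those 3 comparisons. Without the 2 libraries that go against their labels, Pkd1KO against Pkd1KO+ciliaKO females gave 1 in place of 2. In Pkd1KO+ciliaKO against noncystic females 0 became 1 with limma on either TPM scale. The causes were not tested. For most of these settings the share of all genes called is not given here, so the counts do not set the members apart from other genes. No called value reversed. *E2f1*, *E2f8* and *Foxm1* in Pkd1KO males passed in 9 of 9 other settings and 15 of 15 fits that left out a mouse, *Mybl2* in 7 of 9 and 15 of 15. Depth limits *E2f7*, *E2f8* and *Mybl2* most, whose lowest libraries held 19, 21 and 35 fragments.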
